A study of Caenorhabditis elegans with 16 samples.

Results

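The genes described here are 32 Caenorhabditis elegans genes of DNA replication and the cell cycle, read in all 16 libraries of the series. They were chosen by name, with no measured value in the rule but with earlier results of these data known. All 32 were found among the 42048 rows of the deposited tables. By role they are 6 subunits of the MCM helicase, 5 origin licensing genes, 4 genes of the GINS complex and of DNA polymerase alpha-primase, and 3 genes of the sliding clamp and ribonucleotide reductase. The others are 3 genes that act around S phase, 5 that encode the mitotic Cdk and its B cyclins, and 6 that encode mitotic kinases, a checkpoint kinase and kinetochore proteins.

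The study read RNA from whole bodies of worms kept at 20 °C, on adult day 1, in 4 groups of 4 libraries. All groups were fed HT115 bacteria that make double-stranded RNA from the L4440 vector. The first group was the strain TU3401 on the RNAi that the labels call Luc. In TU3401 feeding RNAi is known to act mainly in neurons, because the double-stranded RNA channel SID-1 is lacking elsewhere. The other groups were labelled glp-1 in the TU3401 background (strain SHU47), on Luc RNAi, mml-1 RNAi or mxl-2 RNAi. Per the series design text these glp-1 worms lack a germline. The sources used here do not give the glp-1 allele, the temperature used to remove the germline, or whether replicates were separate cultures, so p-values speak only for the spread among the libraries, which can be technical. MML-1 (Mondo) and MXL-2 (Mlx) bind DNA as a pair, and the knockdowns addressed what they do in neurons of germline-less worms.

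A cell copies its genome once per cycle. Origins are licensed when the origin recognition complex, CDC-6 and CDT-1 load MCM helicases, which are then switched on together with GINS, and polymerase alpha-primase starts the new strands that a sliding clamp helps to extend. Cyclin and Cdk pairs drive the entry into S phase and mitosis, where Aurora and Polo kinases and the kinetochore move the chromosomes. In an adult hermaphrodite the somatic cells no longer divide. Of its own cells, those known to divide and to store these transcripts for the embryo are those of the germline. Embryos carried in the body replicate their DNA and divide too, and are read with it.

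Library depth was 18818680 to 27228111 reads, worked out from the deposited RPKM (reads scaled to coding length and library depth), so that 1 read of a 1 kb gene was worth 0.0367 to 0.0531 RPKM. Transcripts of glp-1 itself averaged 71.1 RPKM in TU3401 and 3.29 RPKM in the glp-1 Luc group. Neither RNAi target was lower in whole-body RNA, which cannot show its level in neurons, where feeding RNAi mainly acts in this background. The level of mml-1 was 22.9 to 91.5 RPKM where the label says mml-1 RNAi, against 11.24 to 35.2 RPKM in the glp-1 Luc group. The level of mxl-2 was 29.3 to 733 RPKM where the label says mxl-2 RNAi, against 20.99 to 30.3 RPKM in the glp-1 Luc group, and it was 308 RPKM in mml-1 RNAi replicate 3. The RNAi groups are therefore named by their labels throughout.

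The replication and cell cycle genes stood among the more abundant transcripts of TU3401 and fell to a small share of those levels in glp-1 worms. In TU3401 their means ran from 52.7 RPKM (cdt-1) to 1072 RPKM (cyb-3), with a median of 157 RPKM against 18.3 RPKM for all genes at 1 RPKM or more, and 31 of the 32 lay above the upper quartile of those genes, 58.3 RPKM. In the glp-1 Luc group no gene of the 32 averaged more than 6.53 RPKM (cdc-6), 18 averaged under 1 RPKM, and the median share of the TU3401 mean that was left was 0.405%, against 78.6% for all genes. In sum the 32 genes stood at 7067 to 7422 RPKM in the TU3401 libraries and at 47.7 to 52.9 RPKM in the glp-1 Luc libraries. RNA of whole bodies was read, so fewer cells of a type and less RNA per cell cannot be told apart.

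By limma on log2(RPKM + 1), with genes at a mean of at least 1 RPKM over the 8 libraries, all 32 genes were called lower in glp-1 at an adjusted p under 0.05. The background is high: of 13563 genes tested, 46.1% were called lower, and 87.6% were called in either direction. All 32 also had every glp-1 Luc library below every TU3401 library, as had 45% of all genes. By size, 30 of the 32 were called and lower by at least 4 on the log2 scale, as were 6.41% of all genes tested. Those short of it were cdc-6 (-3.36 ± 0.07, log2 difference ± SE, limma adjusted p = 2.57e-10) and orc-2 (-3.37 ± 0.09, limma adjusted p = 8.17e-10). The other extreme was cyb-2.2 at -8.12 ± 0.10 (limma adjusted p = 1.09e-11). With other settings all 32 were called lower too: the shares of all genes called in either direction were 88.5% with the replicate number as a block, 57.9% with a pseudocount of 0.1 and no filter, and 77.7% and 78.2% with limma-voom on recovered reads without and with the block. The median difference was -6.38 over the 32 genes and -0.06 over all genes tested, and quantile scaling moved these medians to -5.95 and 0.42. Since 1 RPKM was added before taking logs, a log2 difference cannot fall below what the TU3401 level allows, and the share of the TU3401 mean that was left is therefore given for each gene. For the same reason genes low in TU3401 could not be lower by 4, so the 6.41% is not a background matched for level. The lowest TU3401 mean of the 32 was 52.7 RPKM, against a median of 18.3 RPKM for all genes at 1 RPKM or more.

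**Figure D1:**
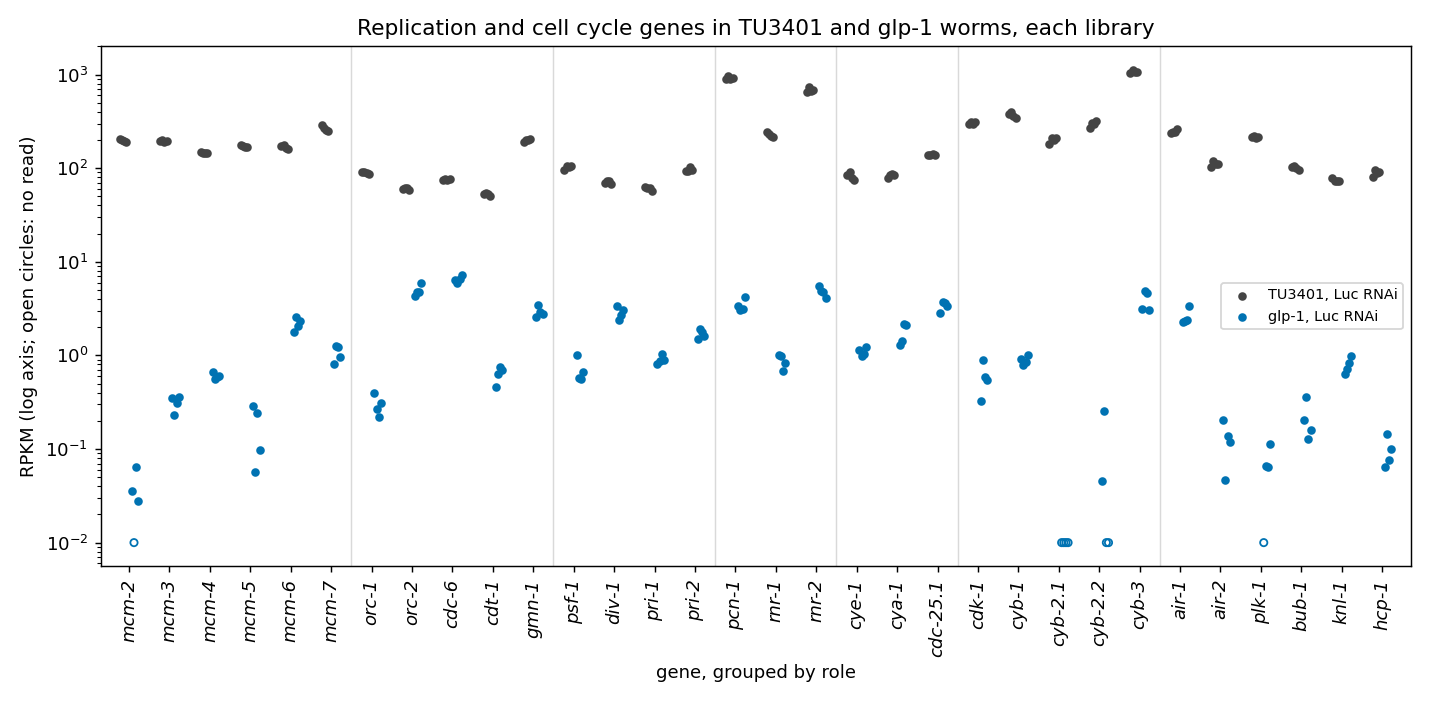
RPKM on a log axis for each of the 32 genes, grouped by role, with 4 TU3401 libraries on Luc RNAi in grey and 4 glp-1 libraries on Luc RNAi in blue. Open circles at the foot of the axis are libraries without a read. Every TU3401 point stands above every glp-1 point of its gene, and the glp-1 points spread over a wider range of levels than the TU3401 points.

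The 6 MCM subunits, which form 1 ring-shaped helicase, had TU3401 levels close to each other and glp-1 levels far apart. Gene positions here and in what follows are starts and ends in WBcel235. The TU3401 means ran from 146 RPKM (mcm-4) to 267 RPKM (mcm-7). mcm-7 (chromosome V, 4347166 to 4349768) stood at 292, 269.9, 256 and 249.9 RPKM in TU3401 replicates 1 to 4 and at 0.813, 1.25, 1.23 and 0.955 RPKM in the glp-1 Luc replicates. mcm-6 (chromosome III, 9794367 to 9798644) stood at 171, 178, 163 and 162 RPKM and at 1.77, 2.58, 2.05 and 2.34 RPKM. No TU3401 library came near a glp-1 library for either gene. What was left was 1.3% of the TU3401 mean for mcm-6 and 0.413% for mcm-4, then 0.398% for mcm-7, 0.161% for mcm-3, 0.099% for mcm-5 and 0.0161% for mcm-2. The last of these rests on 8 reads over the 4 libraries. In TU3401 the mcm-6 mean was 0.851 times that of mcm-2, and in the glp-1 Luc group it was 68.8 times as high. mcm-6 was below mcm-2 in 4 of 4 TU3401 libraries and above it in 4 of 4 libraries of each glp-1 group.

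Among the origin licensing genes, which mark and load the sites where replication starts, the largest shares of all 32 genes were left. cdc-6, the loader of the helicase (chromosome I, 4268070 to 4270287), stood at 74.4, 77.2, 75.6 and 77.2 RPKM in TU3401 and at 6.42, 5.87, 6.57 and 7.24 RPKM in the glp-1 Luc group. orc-2, a subunit of the origin recognition complex (chromosome II, 10873931 to 10877683), stood at 59.7, 61.8, 61.2 and 58.5 RPKM and at 4.36, 4.75, 4.8 and 5.88 RPKM. These were 8.57% and 8.2% of the TU3401 means, although the groups still lay far apart. orc-1, the partner of orc-2 in that complex, fell to 0.335%, at 88.9 ± 2.69 RPKM in TU3401 and 0.298 ± 0.0727 RPKM in glp-1 Luc (mean ± SD, n = 4). orc-2 was below orc-1 in 4 of 4 TU3401 libraries, with a ratio of means of 0.678, and above it in 4 of 4 glp-1 Luc libraries, with a ratio of 16.6. gmn-1, the Cdt1 inhibitor geminin (chromosome III, 12223896 to 12225331), had the highest TU3401 mean of this role and stood at 191, 199, 201 and 205 RPKM and at 2.59, 3.48, 2.88 and 2.77 RPKM. It was left at 1.47%, near the 1.21% of its target cdt-1, which averaged 52.7 ± 1.98 RPKM in TU3401 and 0.635 ± 0.131 RPKM in glp-1 Luc.

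The genes that start new strands all kept more than the 0.405% that was the median of the 32, with a role median of 1.62%. psf-1, a subunit of GINS (chromosome II, 9968673 to 9969630), stood at 95.9, 105, 103 and 105 RPKM in TU3401 and at 1.01, 0.567, 0.558 and 0.667 RPKM in glp-1 Luc, 0.685% of its mean. div-1, the B subunit of polymerase alpha (chromosome III, 10245056 to 10248559), stood at 70.1, 72.6, 72.1 and 68.4 RPKM and at 3.36, 2.36, 2.73 and 3.09 RPKM, 4.08% of its mean. That was the third-largest share, after cdc-6 and orc-2. pri-2, the large primase subunit (chromosome I, 12528304 to 12532135), stood at 94.2, 94.3, 103 and 96.2 RPKM and at 1.49, 1.9, 1.76 and 1.6 RPKM. pri-1, the small primase subunit, averaged 60.2 ± 2.35 RPKM and 0.898 ± 0.0955 RPKM. The primase subunits kept similar shares: 1.74% of pri-2 and 1.49% of pri-1 were left. Their ratio of means was 1.61 in TU3401 and 1.88 in glp-1 Luc. By library, the lowest ratio in glp-1 Luc, 1.71, was just above the highest in TU3401, 1.70.

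Genes of elongation and nucleotide supply were among the most abundant in TU3401. pcn-1, the sliding clamp PCNA (chromosome IV, 4047937 to 4049448), stood at 902, 954, 894 and 926 RPKM in TU3401 and at 3.38, 3.03, 3.09 and 4.22 RPKM in glp-1 Luc. rnr-2, the small subunit of ribonucleotide reductase (chromosome III, 4093308 to 4094921), stood at 655, 728, 675 and 681 RPKM and at 5.45, 4.91, 4.79 and 4.07 RPKM. rnr-1, the large subunit (chromosome III, 9225339 to 9228798), stood at 246, 232, 223 and 217 RPKM and at 1.01, 0.997, 0.678 and 0.838 RPKM. The shares left were 0.374%, 0.702% and 0.384%, all under 1%. The ratio of rnr-2 to rnr-1 means was 2.99 in TU3401 and 5.45 in glp-1 Luc, and the lowest ratio in a glp-1 Luc library, 4.86, was above the highest in a TU3401 library, 3.14.

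The S phase cyclins and the phosphatase CDC-25.1 kept more. cdc-25.1, an activator of Cdks that the germline needs in order to proliferate (chromosome I, 6469386 to 6471922), stood at 138, 139, 141 and 138 RPKM in TU3401 and at 2.84, 3.71, 3.65 and 3.4 RPKM in glp-1 Luc. cya-1, a cyclin A (chromosome III, 9106699 to 9109272), stood at 79.3, 84.8, 87.4 and 84.9 RPKM and at 1.29, 1.44, 2.14 and 2.09 RPKM. cye-1, the cyclin E that pairs with CDK-2 (chromosome I, 6780799 to 6784397), stood at 85.4, 90.1, 79.4 and 75.5 RPKM and at 1.13, 0.981, 1.05 and 1.24 RPKM. The shares left were 2.45%, 2.07% and 1.33%, each above the 0.405% that was the median of the 32.

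The mitotic Cdk and the B cyclins fell steeply, with no share above 0.366%. cyb-3, a B cyclin of the early divisions and the highest of all 32 genes (chromosome V, 15395696 to 15397353), stood at 1039.5, 1130.0, 1055 and 1064 RPKM in TU3401 and at 3.16, 4.86, 4.6 and 3.08 RPKM in glp-1 Luc. cyb-1 (chromosome IV, 10735216 to 10737177) stood at 380.3, 399, 365 and 346 RPKM and at 0.908, 0.79, 0.856 and 1.01 RPKM, 0.239% of its mean. cdk-1, the mitotic kinase that these cyclins bind, averaged 302 ± 7.69 RPKM and 0.594 ± 0.236 RPKM, which left 0.197%. The closely related B cyclin genes cyb-2.1 and cyb-2.2 had the smallest shares of this role. cyb-2.1 (chromosome IV, 10985985 to 10987426) stood at 182, 212, 199.8 and 212 RPKM in TU3401 and had no read in any of the 12 glp-1 libraries. Against a floor of 3 reads over the 4 libraries it was at least 6117-fold lower in the glp-1 Luc group. cyb-2.2 (chromosome I, 4114861 to 4116370) stood at 269, 303, 298 and 317 RPKM in TU3401 and at 0.046, 0.252, 0 and 0 RPKM in glp-1 Luc, which is 7 reads in all. The sources used here do not say how reads shared by this pair were counted, so the level of either gene alone is uncertain.

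The mitotic kinases, checkpoint and kinetochore genes had the lowest median share of the 7 roles, 0.163%. air-1, the Aurora A kinase of the centrosomes (chromosome V, 8221488 to 8223582), stood at 240.1, 244, 242 and 261 RPKM in TU3401 and at 2.25, 2.32, 2.37 and 3.37 RPKM in glp-1 Luc. knl-1, the scaffold of the outer kinetochore (chromosome III, 8250632 to 8253943), stood at 78.1, 73.1, 72.98 and 72.3 RPKM and at 0.635, 0.722, 0.822 and 0.981 RPKM. These genes kept 1.04% and 1.07%. air-2, the Aurora B kinase of the chromosomal passenger complex, averaged 110.3 ± 6.94 RPKM in TU3401 and 0.127 ± 0.0649 RPKM in glp-1 Luc and kept 0.115%. The Aurora kinase genes differed in what was left: air-1 was 2.24 times as high as air-2 in TU3401 and 20.2 times as high in glp-1 Luc. The checkpoint kinase gene bub-1 kept 0.211%, the kinetochore gene hcp-1 kept 0.108%, and the Polo kinase gene plk-1 kept 0.0281%, on 12 reads. Their TU3401 means were 102, 88.7 and 215 RPKM.

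**Figure D2:**
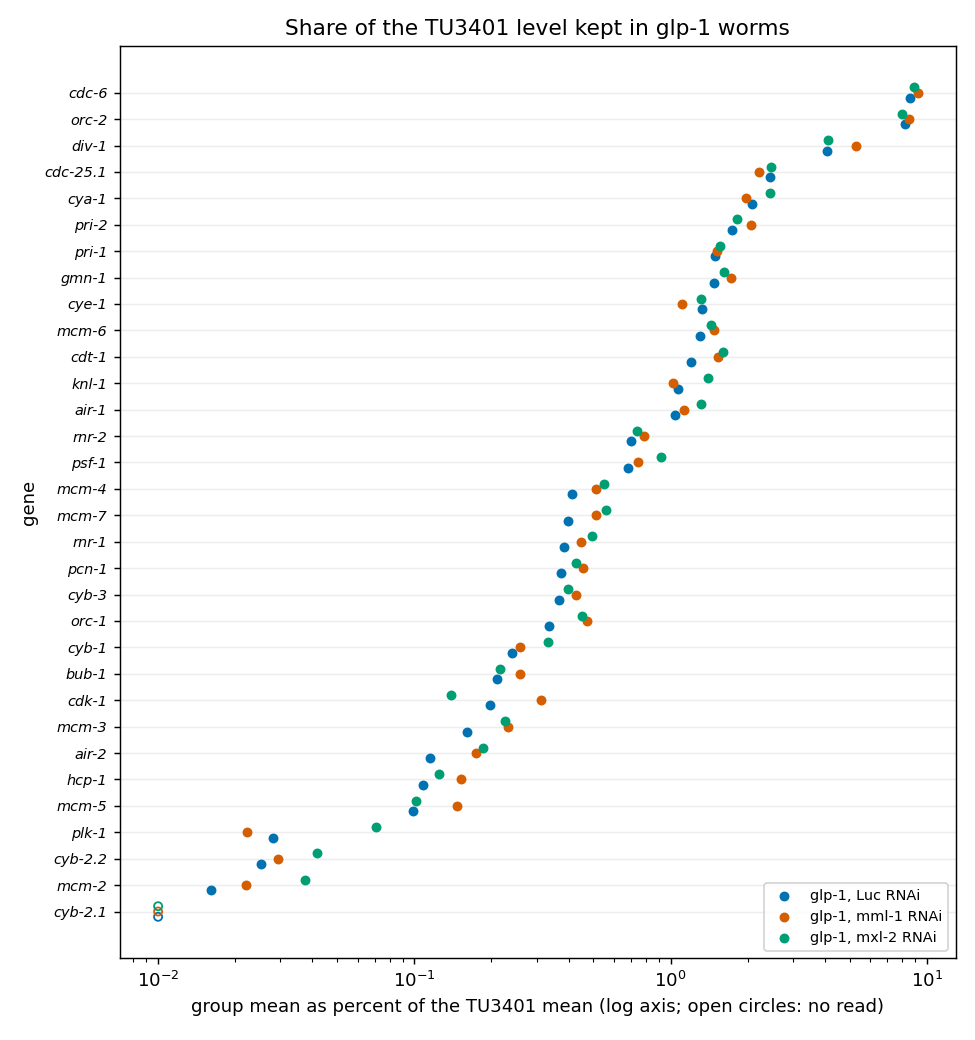
Mean of each glp-1 group as a percent of the TU3401 mean, on a log axis, for the 32 genes in the order of the Luc group. Blue points are Luc RNAi, orange points are libraries labelled mml-1 RNAi, green points are those labelled mxl-2 RNAi, and open circles mark no read. cdc-6, orc-2 and div-1 are the top 3 in each group, and cyb-2.1 has no read in any.

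Across the 32 genes the share left in glp-1 Luc spanned from no read (cyb-2.1) to that of cdc-6. 19 genes kept under 1%, 8 kept between 1% and 2%, and 5 kept more (cdc-6, orc-2, div-1, cdc-25.1 and cya-1, at 8.57%, 8.20%, 4.08%, 2.45% and 2.07%), while 6.75% of all genes at 1 RPKM or more in TU3401 kept under 1%. cdc-6, orc-2 and div-1 were the top 3 in each of the 3 glp-1 groups, which share a strain. Genes that were higher in TU3401 tended to keep a smaller share (Spearman's rho = -0.53 over 32 genes, a description, since both measures hold the TU3401 mean and genes are not independent replicates). The levels themselves were not ordered alike in TU3401 and glp-1 Luc (Spearman's rho = -0.03 over the same genes).

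The 32 genes also shared features that their names do not give. In WBcel235, 9 lie on chromosome I, 3 on II, 12 on III, 3 on IV and 5 on V. None lies on X, which holds 15.1% of the 12023 tested genes that were matched to the annotation. They varied little between TU3401 libraries: the median coefficient of variation was 3.77%, from 1.15% (cdc-25.1) to 7.80% (cye-1), against 10.6% for all genes at 1 RPKM or more. This was not matched for level, as the median level was 157 RPKM for the 32 genes and 18.3 RPKM for all genes. For those of the 32 at 1 RPKM or more in a glp-1 group, the median was 14.1% (Luc RNAi), 17.9% (mml-1 RNAi) and 19.7% (mxl-2 RNAi). For all genes at that level it was 16.4%, 16.4% and 17.5%. Replicate 2 of TU3401 was the highest of its group for 16 of the 32 genes (50%) and for 27.5% of all genes. Coding exons overlapped those of another gene only for mcm-6, by 4 bases.

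Markers of the germline fell beside these genes. All 13 germline markers were called lower by limma, and their summed level was 1681 to 1768 RPKM in TU3401 and 20.5 to 28.4 RPKM in the glp-1 Luc group, where pgl-3 and htp-3 had no read. Of the 13, 8 kept under 1% of the TU3401 mean, while nos-3 kept 9.89%, fbf-2 6.98%, glh-4 6.90%, mes-2 4.72% and glh-1 3.97%. All 15 oocyte and eggshell markers were called lower, from 9534 to 10085 RPKM in sum down to 10.0003 to 13.8 RPKM. Of 12 early embryo genes 8 were tested and 7 called lower, and nob-1 kept 96.9% of its TU3401 mean. The summed level of all 12 was 61.1 to 80.996 RPKM in TU3401 and 4.72 to 8.998 RPKM in glp-1 Luc, where 6 to 10 of the 12 had no read in a given library. Sperm markers were near 0 in both groups, at 1.71 to 4.55 RPKM in sum in TU3401 and 2.25 to 4.18 RPKM in glp-1 Luc. Of the 9 somatic gonad markers found, 6 were called higher and 3 lower. What part these cells had in the difference of the replication genes was not tested, and germline loss cannot be told apart from other differences between strains TU3401 and SHU47.

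Other genes of the same processes were lower too, and by the median share left each of 9 wider lists kept more than the 0.405% of the 32 genes. The markers above did not all keep more. By the median, 13 germline markers kept 0.186%, 15 oocyte and eggshell markers 0.0322%, 8 early embryo genes 0.269% and 9 somatic gonad markers 188%. Of 10 further origin licensing and firing genes 10 were called lower, with a median log2 difference of -5.20 and 1.2% left. In this list sld-5, a GINS subunit, kept 16.95% while its partners psf-2 and psf-3 kept 0.452% and 0.381%. Of 17 polymerase, clamp loader and fork genes 16 were called lower, with a median of -4.49. The exception was rpa-4, a replication protein A gene, at -0.23 (limma adjusted p = 0.179), which kept 83.8%. The 4 nucleotide supply genes were all called lower and ran from the dUTPase gene dut-1, which kept 0.243%, to the nucleoside diphosphate kinase gene ndk-1, which kept 49.5%.

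Regulators of G1 and S phase were lower by less. All 20 tested were called lower, with a median log2 difference of -2.60 and 10.3% left. The Cdk inhibitor gene cki-1 kept 37.4% and cdk-4, whose kinase drives G1 with cyclin D, kept 31.2%, while cyd-1, the cyclin D gene itself, kept 1.16%. cdk-2, the kinase partner of CYE-1, kept 7.51%. The phosphatase gene cdc-25.3, a relative of cdc-25.1, kept 0.0228%.

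Of the wider lists, the kinetochore and chromosomal passenger genes had the median nearest to that of the 32. All 19 kinetochore and chromosomal passenger genes were called lower, with a median of -5.43 and 0.889% left, among them hcp-3, the centromeric histone gene, and icp-1 and csc-1, partners of AIR-2. All 19 spindle checkpoint and anaphase promoting complex genes were called lower, with a median of -4.03, from mdf-2, the Mad2 checkpoint gene, at 0.0996% to mat-1, an anaphase promoting complex subunit, at 29.6%. All 10 cohesin and condensin genes and all 12 DNA damage checkpoint genes were called lower, with medians of -4.32 and -3.40. Of 14 Cdks and cyclins that do not drive the cycle, 13 were called lower and cdka-1, an activator of CDK-5, was called higher, with a median of -2.07 and 22.2% left. The differences between lists were not tested.

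**Figure D3:**
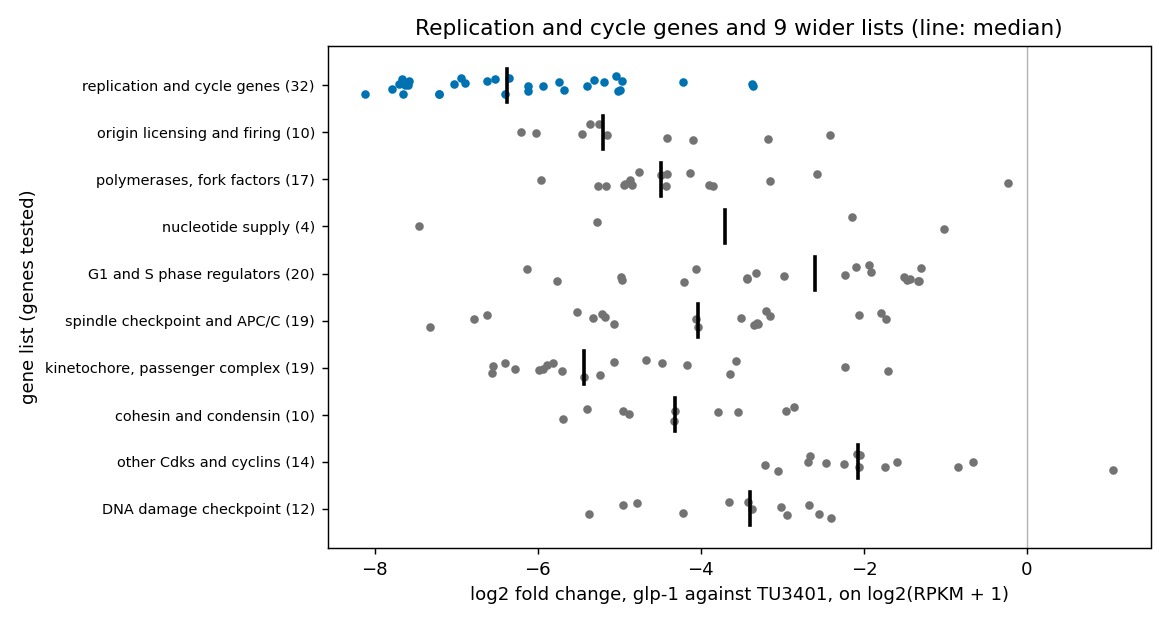
Log2 difference of glp-1 Luc against TU3401 on the log2(RPKM + 1) scale, 1 point per gene, for the 32 genes (blue) and 9 wider lists of the same processes (grey), with the list median as a black bar and the number of genes tested in brackets. The 32 genes have the lowest median at -6.38, and the Cdks and cyclins that do not drive the cycle have the highest at -2.07.

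In the libraries labelled mml-1 RNAi the replication and cell cycle genes were read at low levels near those of the glp-1 Luc group. The filter on low values was passed by 14 of the 32, and limma called none of the 14, where 0.0159% of 12591 genes tested were called (2 genes, with 985 at an unadjusted p under 0.05). None of the 14 had an unadjusted p under 0.05, and the lowest limma adjusted p was 0.782 (pcn-1). With the replicate number as a block the lowest limma adjusted p of the 14 was 0.396. The 95% intervals of the 14 log2 differences lay between -0.48 (cdc-25.1) and 0.73 (div-1). With all reads recovered, limma-voom tested 31 genes of the 32 and called none, with 0.0176% of all genes called, and 0.0172% were called with a pseudocount of 0.1 and no filter. No gene of the 32 had groups that did not overlap, against 4.75% of all genes tested. The number of genes called over the whole table is not stable here: it went from 2 to 60 (0.477%) with the replicate number as a block, to 3.1% of genes with limma-voom and the block, and to 27 higher and 26 lower without replicate 4 of the mml-1 RNAi group. It was 5 without replicate 2 of the Luc group and 0 without Luc replicate 1, 3 or 4 or mml-1 RNAi replicate 3. With mml-1 RNAi replicate 1 or 2 left out it was 1. No gene of the 32 was called in any of these fits.

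The libraries labelled mxl-2 RNAi gave the same count. The filter was passed by 16 of the 32 and limma called none of them, where 0.103% of 12581 genes were called (13 genes, with 823 at an unadjusted p under 0.05). The lowest limma adjusted p among the 16 was 0.869 (mcm-7), and their 95% intervals lay between -0.36 (cye-1) and 0.62 (mcm-7). With the replicate number as a block the lowest limma adjusted p of the 16 was 0.365. limma-voom on recovered reads called none of 31, with 0.0882% of all genes called. The share of all genes called was 0.191% with the replicate block, 2.18% with limma-voom and the block, and 0.0515% with a pseudocount of 0.1 and no filter, and none of the 32 was called. Without mxl-2 RNAi replicate 4 there were 7 genes higher and 9 lower, and without any other library 1 to 9 in all. Groups did not overlap for 1 gene of the 32, against 4.12% of all genes tested in either direction and 2.15% with the RNAi group higher. That gene, mcm-4, was under the filter and stood at 0.684, 0.904, 0.848 and 0.763 RPKM with mxl-2 RNAi and at 0.665, 0.556, 0.581 and 0.609 RPKM with Luc RNAi. In the authors' deposited tables the false discovery rate was 1 for all 32 genes in both knockdown comparisons, which share the glp-1 Luc libraries.

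By role, the levels in single libraries were as follows. mcm-6 stood at 2.09, 2.99, 2.6 and 2.24 RPKM in mml-1 RNAi replicates 1 to 4 and at 1.88, 3.1, 2.35 and 2.36 RPKM in mxl-2 RNAi replicates 1 to 4. mcm-7 stood at 1.28, 1.59, 1.52 and 1.05 RPKM and at 1.19, 1.82, 1.65 and 1.3 RPKM. Both ranges overlap those of the glp-1 Luc group for each gene. For mcm-7 the log2 difference from Luc was 0.19 (95% interval -0.13 to 0.52) with mml-1 RNAi and 0.27 (95% interval -0.08 to 0.62) with mxl-2 RNAi.

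cdc-6, the gene with the highest residual level, stood at 7.44, 6.96, 5.94 and 7.66 RPKM with mml-1 RNAi and at 6.08, 8.38, 5.2 and 7.36 RPKM with mxl-2 RNAi. orc-2 stood at 5.02, 6.06, 4.33 and 5.2 RPKM and at 4.57, 5.79, 3.85 and 5.02 RPKM, and gmn-1 at 3.44, 2.89, 4.31 and 3.004 RPKM and at 3.19, 3.06, 3.33 and 3.31 RPKM. All 3 genes overlapped the Luc libraries in both groups. For cdc-6 the log2 differences were 0.09 (95% interval -0.15 to 0.33) and 0.03 (95% interval -0.30 to 0.36). orc-1, under the filter, averaged 0.419 ± 0.112 RPKM and 0.402 ± 0.204 RPKM, and cdt-1 averaged 0.807 ± 0.109 RPKM and 0.844 ± 0.235 RPKM.

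div-1 stood at 5.89, 3.62, 3.03 and 2.44 RPKM with mml-1 RNAi, where replicate 1 was the highest of all 12 glp-1 libraries, and at 3.51, 2.65, 2.8 and 2.69 RPKM with mxl-2 RNAi. Its difference from Luc with mml-1 RNAi, 0.24, was the largest of the 14 genes tested, with a 95% interval that reached furthest up (-0.24 to 0.73). It rested on replicate 1: without that library it was 0.05, and that of pcn-1 was 0.18. pri-2 stood at 2.03, 2.48, 1.75 and 1.71 RPKM and at 1.45, 1.58, 1.99 and 2.01 RPKM, and psf-1 at 1.37, 0.862, 0.43 and 0.394 RPKM and at 1.19, 0.772, 0.95 and 0.836 RPKM. The psf-1 values with mml-1 RNAi reached both above and under all 4 Luc libraries.

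pcn-1 stood at 4.72, 3.96, 4.44 and 3.62 RPKM with mml-1 RNAi and at 3.79, 3.81, 2.91 and 5.17 RPKM with mxl-2 RNAi. rnr-1 stood at 1.47, 1.12, 0.733 and 0.79 RPKM and at 1.37, 1.21, 0.956 and 0.972 RPKM, and rnr-2 at 6.39, 5.62, 4.58 and 4.96 RPKM and at 6.08, 4.04, 4.59 and 5.54 RPKM. For pcn-1 the difference from Luc with mml-1 RNAi was 0.23 (95% interval -0.05 to 0.51, limma adjusted p = 0.782), and 3 of the 4 same-numbered pairs were higher with the RNAi.

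The S phase genes were below Luc on average with mml-1 RNAi, within the spread between libraries. cye-1 stood at 0.824, 0.857, 0.909 and 1.09 RPKM with mml-1 RNAi and at 1.02, 1.39, 1.18 and 0.76 RPKM with mxl-2 RNAi. cya-1 stood at 2.17, 1.34, 1.55 and 1.56 RPKM and at 1.33, 2.64, 1.95 and 2.27 RPKM, and cdc-25.1 at 2.37, 3.5, 3.94 and 2.45 RPKM and at 2.79, 4.21, 3.33 and 3.35 RPKM. With mml-1 RNAi these were the 3 genes of the 14 with a negative difference: -0.13 for cye-1, -0.04 for cya-1 and -0.13 for cdc-25.1. The intervals all held 0. cye-1 was lower in 4 of 4 same-numbered pairs and cya-1 and cdc-25.1 in 3 of 4. Of the intervals, that of cdc-25.1 reached furthest down (-0.48 to 0.22).

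cyb-3 stood at 4.8, 5.11, 3.63 and 4.77 RPKM with mml-1 RNAi and at 3.72, 4.98, 3.3 and 5.13 RPKM with mxl-2 RNAi, and cyb-1 at 0.86, 1.28, 0.879 and 0.842 RPKM and at 0.934, 1.39, 1.17 and 1.44 RPKM. cyb-2.2 stood at 0.0509, 0.171, 0.128 and 0 RPKM and at 0, 0.153, 0.161 and 0.181 RPKM, on 8 and 11 reads. At such counts a difference was not detectable. cdk-1, under the filter, stood at 0.676, 1.66, 0.565 and 0.876 RPKM with mml-1 RNAi and at 0.0846, 0.728, 0.494 and 0.369 RPKM with mxl-2 RNAi. It was lower with mxl-2 RNAi than with mml-1 RNAi or Luc RNAi in 4 of 4 same-numbered pairs, although the ranges overlap. Between both RNAi groups limma-voom with the replicate block gave an adjusted p of 0.757 (without the block 0.999986).

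air-1 stood at 1.85, 2.8, 2.92 and 3.53 RPKM with mml-1 RNAi and at 2.28, 3.66, 3.44 and 3.57 RPKM with mxl-2 RNAi, and knl-1 at 0.77, 0.732, 0.701 and 0.826 RPKM and at 0.808, 1.42, 0.786 and 1.14 RPKM. plk-1 was read 12 times in the Luc group, 8 times with mml-1 RNAi and 27 times with mxl-2 RNAi. For plk-1, limma-voom with the replicate block gave an adjusted p of 0.579 (without the block 0.999986) between both RNAi groups, so the higher count with mxl-2 RNAi did not pass the test. The genes under the filter that are not named here by library stayed in the same range, from 0.0434 RPKM (mcm-2, mml-1 RNAi) to 0.939 RPKM (pri-1, mxl-2 RNAi) on average.

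**Figure D4:**
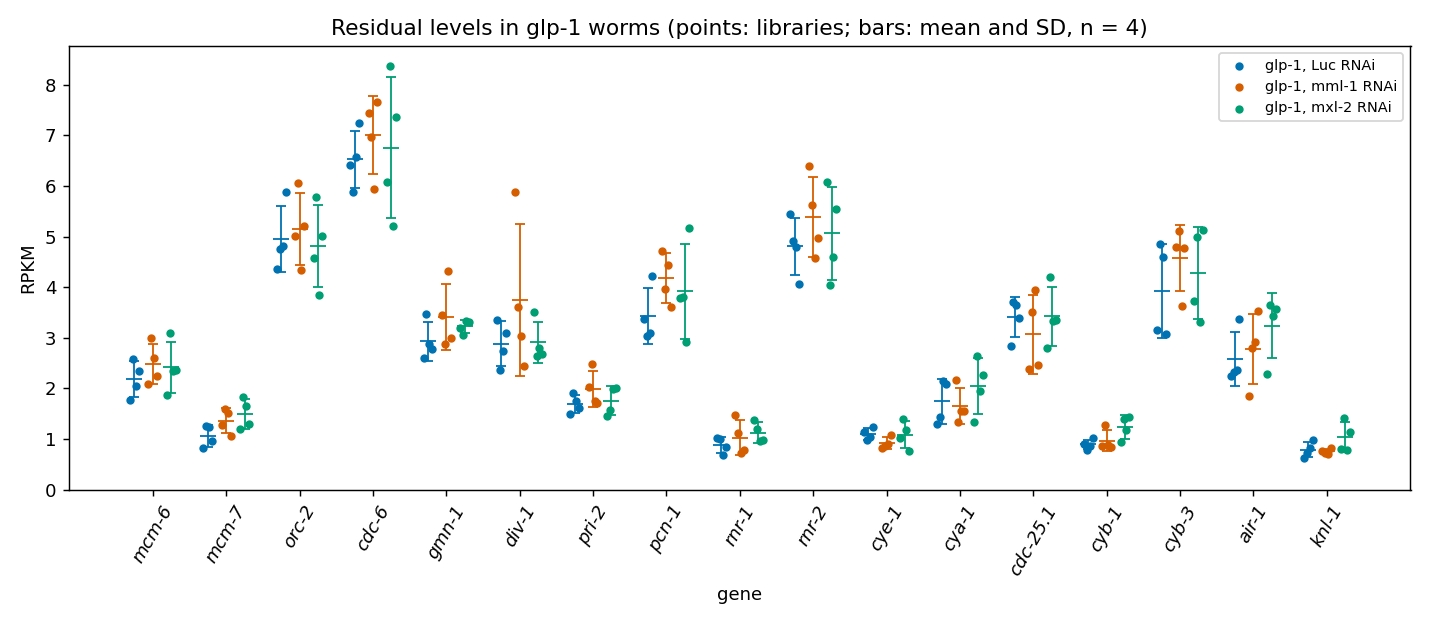
RPKM of the 17 genes that averaged at least 1 RPKM in at least 1 glp-1 group. Points are libraries and bars are the mean and SD (n = 4) for Luc RNAi (blue), libraries labelled mml-1 RNAi (orange) and libraries labelled mxl-2 RNAi (green). No gene has groups that do not overlap, and cdc-6 has the highest mean in all 3 groups.

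Most small differences from the Luc group had the same sign. Over the genes tested, 11 of 14 were above 0 with mml-1 RNAi (median 0.13, from -0.13 to 0.24) and 14 of 16 with mxl-2 RNAi (median 0.10, from -0.04 to 0.27), where 48.7% and 50.1% of all genes were above 0. rnr-1 and cyb-1 passed the filter for mxl-2 RNAi only through the RNAi group, with Luc means of 0.881 and 0.892 RPKM. cye-1 passed it for mml-1 RNAi only through Luc, at 0.919 RPKM with mml-1 RNAi. With a pseudocount of 0.1 and no filter, 25 of 31 and 27 of 31 were above 0, where 49.1% of all genes were in each comparison. Genes are not independent replicates, so these counts only describe. These comparisons share the glp-1 Luc libraries. By same-numbered pairs, 3 of the 32 were higher with mml-1 RNAi than with Luc RNAi in 4 of 4 pairs (mcm-7, cdt-1 and hcp-1) and 1 was lower (cye-1), against 11.7% and 15.7% of all genes tested. With mxl-2 RNAi 8 of the 32 were higher in 4 of 4 pairs (mcm-4, mcm-6, mcm-7, cdt-1, psf-1, rnr-1, cyb-1 and air-1) and 1 was lower (cdk-1), against 11.7% and 13.2% of all genes tested. None of them was called, with or without the replicate block. Between mxl-2 RNAi and mml-1 RNAi, 4 were higher in 4 of 4 pairs (cyb-1, air-1, plk-1 and knl-1) and 2 were lower (orc-2 and cdk-1), against 9% and 6.75% of all genes tested. Between mxl-2 RNAi and mml-1 RNAi, limma called none of the 16 genes tested and 0% of 12540 genes, with 111 genes and no gene of the 16 at an unadjusted p under 0.05. limma-voom called none of 31 genes, and 0.0296% of all genes with the block. At an unadjusted p under 0.05, limma-voom had 2 of the 31 and 196 of 16917 genes without the block, and 4 of the 31 and 1092 of 16917 with it. Of the 16, 7 were above 0 and 9 below, and no gene of the 32 had groups that did not overlap, against 0.678% of all genes. Counts of pairs and of groups without overlap are over all 32 genes, also those under the filter. The shares beside these counts are over genes that passed the filter. The summed level of the 32 was 47.7 to 52.9 RPKM with Luc RNAi, 52.8 to 61.3 RPKM with mml-1 RNAi and 50.6 to 62.7 RPKM with mxl-2 RNAi, so the groups overlap, with Luc replicate 4 just above mml-1 RNAi replicates 3 and 4.

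Replicate 2 moved with these sums. It had the highest sum of the 32 genes in both RNAi groups, 61.3 and 62.7 RPKM, and the highest sum of the 13 germline markers in all 3 glp-1 groups, at 28.4 RPKM with Luc RNAi, 28.3 RPKM with mml-1 RNAi and 31.1 RPKM with mxl-2 RNAi. It was the highest library for 19 of the 31 genes with reads in the mxl-2 RNAi group (61.3%), against 37.97% of all genes, and for 16 of 31 in the mml-1 RNAi group (51.6%), against 32.04%. In the glp-1 Luc group the highest sum of the 32 was that of replicate 4, at 52.9 RPKM. What part germline transcripts have in the residual levels was not tested.

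**Figure D5:**
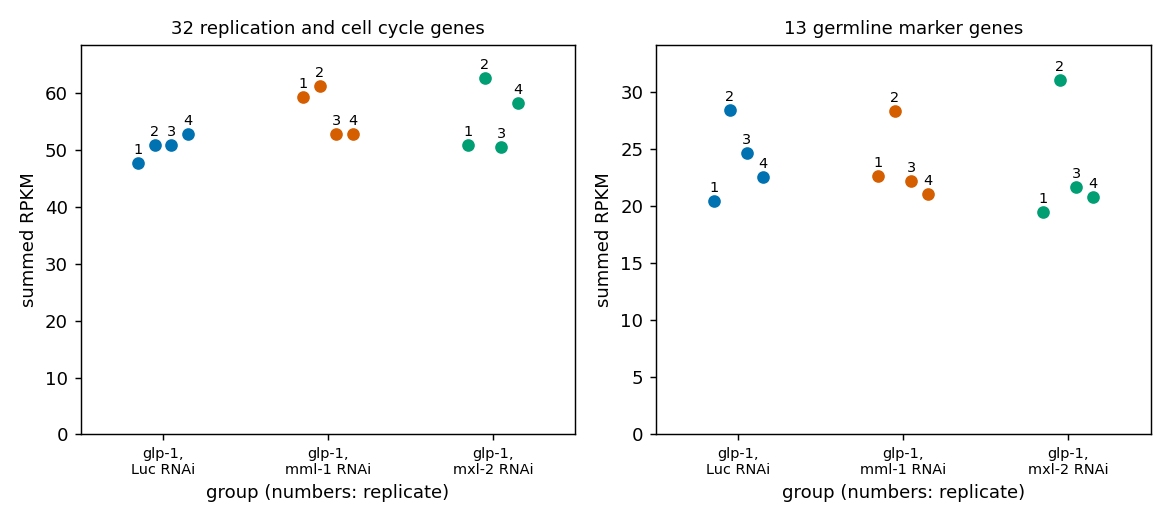
Summed RPKM of the 32 replication and cell cycle genes (left) and of 13 germline marker genes (right) in each glp-1 library, with axes that start at 0 and the replicate number beside each point. Replicate 2 is the highest of its group for the germline markers in all 3 groups and for the 32 genes in both RNAi groups.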

How the data were processed

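RNA-seq of 16 libraries in 4 groups of 4 was used. Per the file headers, the authors deposited RPKM per library for 3 comparisons, each with their log2 fold change, their p-value with its false discovery rate, and a rank score, which was not used. The submitters' processing notes name bcl2fastq, TopHat2 2.1.1 and GRCh38, a human build; the build used for these worm values, the counting tool, and how strand and reads with several matches were handled are not given in the sources used here. Columns shared between tables were equal (largest difference 0.0). Dividing the deposited RPKM by the value of 1 read gave whole reads, within 0.001, for all 25332 genes above 0 (100% of them). The lengths so found equal the coding length in Ensembl release 115 (WBcel235, the source of all coordinates and names) for 31 of the 32 genes, and plk-1 differs. The library totals and gene lengths were themselves set with the help of annotated coding lengths, so this match is not an independent check. Antisense or overlapping transcription cannot be told apart without strand. Intervals and floors from reads cover counting error only.

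Tests used R 4.3.3 and limma 3.58.1 on log2(RPKM + 1), on genes with a mean of at least 1 RPKM over the 8 libraries compared (lmFit, eBayes with trend and robust variances, 2-sided, Benjamini-Hochberg over all genes tested, called under 0.05), and were tested on simulated data with 200 changed genes. Alternatives were a pseudocount of 0.1, a filter at 0.1 RPKM or none, all 4 groups in 1 fit, the replicate number as a block, median-ratio and quantile scaling, limma-voom on recovered reads (at least 10 over the 8 libraries), with and without the block, and leaving out each library. Deviations from the group means of same-numbered libraries correlated at 0.108 to 0.276 for glp-1 against TU3401 and 0.215 to 0.690 among the glp-1 groups, all over 0.1, so the numbers were taken to pair the samples. For glp-1 against TU3401 this is weaker: number 3 correlated at 0.108 with its own number and at 0.245 with another, while in the other 3 comparisons each correlated best with its own. The main tests, with their SEs, intervals and adjusted p, leave the pairing out, and only the fits with the block use it. With the block, 2354 genes for mml-1 RNAi and 1963 for mxl-2 RNAi had an unadjusted p under 0.05 by limma against Luc RNAi.

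The 32 genes and all lists were chosen with earlier results of these data known. Values in every library are given for the highest TU3401 mean and the largest share left in each role, for cyb-2.1 and cyb-2.2 and for genes at 1 RPKM or more in a glp-1 group; mcm-4 and cdk-1 were named by library after their values were seen. Names of the wider lists that were not matched were not analysed here.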

Additional observations from a re-analysis of the deposited data

Results flagged for a closer look

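Of 125 groups of 4 libraries in which a gene of the 32 was read, 7 had 1 library set apart from the other 3 by more than Dixon's 95% limit for the gap over the range, where chance gives about 1 in 20 groups. All values are RPKM. In mxl-2 RNAi replicate 2, orc-1 stood at 0.707 against 0.289 to 0.31 in the other 3, and pri-1 at 1.14 against 0.859 to 0.891. In mxl-2 RNAi replicate 1, cyb-2.2 had 0 reads against 0.153 to 0.181, and air-1 stood at 2.28 against 3.44 to 3.66. In mml-1 RNAi replicate 2, cyb-1 stood at 1.28 against 0.842 to 0.879. In glp-1 Luc replicate 4, air-1 stood at 3.37 against 2.25 to 2.37. In TU3401 replicate 1, knl-1 stood at 78.1 against 72.3 to 73.1, a gap that is small beside the difference between TU3401 and glp-1.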

How the results depend on the processing

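For glp-1 against TU3401, all 32 genes were called lower under all 17 alternatives, so that 544 of 544 refitted differences kept their direction and side of the threshold. In the comparisons among glp-1 groups no gene of the 32 was called under any alternative, the replicate block included. Signs near 0 turned without a call. For cdc-25.1 with mxl-2 RNAi the difference was -0.000108 with a pseudocount of 0.1, with or without the filter, -0.00341 with median-ratio scaling, -0.012 with quantile scaling and -0.0113 with limma-voom, and for cye-1 it was 0.00216 with quantile scaling. With 1 library left out, differences with mml-1 RNAi ran from -0.0252 to 0.197 (air-1), -0.13 to 0.0291 (cya-1) and -0.0207 to 0.12 (orc-2). With mxl-2 RNAi they ran from -0.081 to 0.0714 (cdc-25.1), -0.0686 to 0.13 (cdc-6), -0.0847 to 0.0617 (cye-1), -0.059 to 0.0686 (div-1), -0.117 to 0.0447 (orc-2), -0.0111 to 0.0872 (pri-2) and -0.0232 to 0.141 (rnr-2). Between mxl-2 and mml-1 RNAi they ran from -0.155 to 0.0441 (cdc-6), -0.174 to 0.00605 (cyb-3), -0.11 to 0.0408 (gmn-1), -0.12 to 0.0507 (mcm-6), -0.205 to 0.0145 (pcn-1) and -0.159 to 0.00543 (rnr-2).

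Counts over all genes moved, and the cause was not tested. With mml-1 RNAi (0 higher and 2 lower) they were 1 and 5 with a pseudocount of 0.1, 4 lower with a pseudocount of 0.1 and no filter together, 8 and 31 with all groups in 1 fit, 14 and 46 with the replicate block, 1 higher with median-ratio scaling, quantile scaling or limma-voom, 190 and 339 with limma-voom and the block, and 0 to 27 higher and 0 to 26 lower with 1 library left out. With mxl-2 RNAi (2 higher and 11 lower) they were 0 and 5 with a filter at 0.1 RPKM, 6 and 19 with all groups in 1 fit, 8 higher with the block, 4 higher with limma-voom, 157 and 214 with limma-voom and the block, and 0 to 7 higher and 1 to 9 lower with 1 library left out. Between the RNAi groups limma-voom with the block gave 1 and 4. Depth limits genes such as mcm-2 and plk-1, which had 36 and 47 reads over all 12 glp-1 libraries.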
